A study of Mus musculus with 4 samples.

Results

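The olfactory receptor (Olfr) gene clusters of the mouse autosomes were examined in an array comparative genomic hybridisation of liver DNA, in which a sample and a reference DNA carrying different dyes compete for the same probes. The members are the 676 autosomal probes whose design name is Olfr followed by a number, out of 52385 autosomal probes measured on all arrays. They represent 604 genes, of which 560 have 1 probe, 16 have 2 and 28 have 3. Probes on one chromosome were placed in the same cluster unless more than 1 Mb separated neighbours, which gave 44 clusters on 16 chromosomes. Of these, 26 clusters hold at least 5 Olfr probes and together 645 of the 676. A cluster is written here by its chromosome and its order on it, so that OR16.4 is the fourth on chromosome 16. Of the 604 names, 598 matched a symbol and 4 a synonym in RefSeq (GRCm38, used for names only), which lists 594 of the matched genes as protein coding and 7 as pseudogenes.

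There was 1 group of 4 samples, liver cells with the genotype label TAK1LPC-KO_RIP3-_-, which names a knockout of the kinase TAK1 together with loss of the kinase RIP3. DNA came from formalin-fixed, paraffin-embedded sections and carried Cy5, and the reference on every array was a Cy3-labelled pool of 4 normal livers. Strain, age, the driver of the TAK1 deletion and the number of animals behind the samples are not given in the sources used here, nor is the genotype or strain of the pool. Values are log2 ratios of sample over pool, centred on each array's autosomal median, so 0 means the ratio of the typical autosomal probe. Slide 1 held replicates 1 and 2 and slide 2 held replicates 3 and 4, and slide and sample cannot be told apart. No dye swap was made, and the spread between normal livers is not measured, so a ratio away from 0 can be a property of the samples, of the pool or of the probe's dyes. The scanner software marked 84.3 to 89.9% of an array's spots as well above background for the sample and 94.4 to 97.7% for the pool.

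Olfactory receptors are G protein-coupled receptors that detect odorants in the nose, and they form the largest gene family of the mouse genome. Their genes, most with the coding sequence in a single exon, lie in tandem clusters that arose by repeated duplication, and such clusters are known to vary in copy number and sequence between mouse strains. Class I receptors lie in one large cluster on chromosome 7 around the beta-globin genes, and class II receptors in the many others. Genomic DNA was measured here, so the values are about gene dosage and probe binding, not about receptor expression.

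The probes below carry the results that follow. The first 9 belong to the highest and lowest called genes with signal above background, and the next 5 to the genes of OR16.4 whose ratios differed between arrays. Sequences are those of the array design on build mm9, with the probe strand not given, and no letter is set in capitals among them.
Olfr822, chr10:129511724-129511782: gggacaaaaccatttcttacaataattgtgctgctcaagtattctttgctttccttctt
Olfr820, chr10:129454636-129454694: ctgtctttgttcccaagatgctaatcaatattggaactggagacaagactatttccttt
Olfr1156, chr2:87789726-87789785: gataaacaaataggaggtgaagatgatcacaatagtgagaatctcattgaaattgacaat
Olfr355, chr2:36782761-36782820: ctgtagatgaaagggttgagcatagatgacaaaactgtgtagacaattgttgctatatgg
Olfr355, chr2:36783110-36783169: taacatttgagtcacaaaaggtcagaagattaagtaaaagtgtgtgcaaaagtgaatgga
Olfr355, chr2:36783385-36783444: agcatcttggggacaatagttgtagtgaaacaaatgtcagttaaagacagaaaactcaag
Olfr1511, chr14:53010412-53010462: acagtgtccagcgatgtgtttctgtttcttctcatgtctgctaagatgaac
Olfr632, chr7:111086490-111086537: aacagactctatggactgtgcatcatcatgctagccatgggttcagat
Olfr1413, chr1:94470397-94470445: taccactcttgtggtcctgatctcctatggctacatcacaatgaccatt
Olfr183, chr16:58997491-58997550: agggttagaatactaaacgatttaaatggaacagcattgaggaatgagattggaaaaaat
Olfr183, chr16:59000320-59000379: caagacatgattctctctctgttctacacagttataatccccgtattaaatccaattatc
Olfr186, chr16:59027444-59027503: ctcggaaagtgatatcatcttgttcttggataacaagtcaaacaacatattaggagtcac
Olfr187, chr16:59036088-59036145: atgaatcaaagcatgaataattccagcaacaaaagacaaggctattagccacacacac
Olfr207, chr16:59361579-59361638: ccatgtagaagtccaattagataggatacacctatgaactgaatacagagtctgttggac

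Taken as a family, the Olfr probes lay slightly above the typical autosomal probe on every array. Their median log2 ratio was 0.13, 0.13, 0.04 and 0.06 on replicates 1 to 4, a mean of 0.089 ± 0.046 (SD, n = 4 arrays), where the other autosomal probes had a mean of -0.001. The 4 medians were above 0, and those of slide 1 were above those of slide 2. With the normexp background correction the family mean fell to 0.033 and replicate 3 was at -0.004. Of the Olfr probes 58.7% had a mean above 0, against 49.4% of the others. The spread among the members was no wider than elsewhere, with an SD of probe means of 0.34 for Olfr and 0.40 for other probes. Means past 1 in size were found for 3 Olfr probes, 0.444% of them, against 1.67% of the others. The vomeronasal receptors, a separate set of chemosensory receptor families that also lie in tandem clusters, had medians of 0.11, 0.14, 0.11 and 0.15 over 82 probes. The 963 other probes inside the Olfr clusters had a mean of array medians of 0.022 ± 0.017 (SD, n = 4), and the 5156 probes within 2 Mb outside the clusters -0.033 ± 0.015. On replicates 3 and 4 the Olfr median exceeded that of the other probes inside by only 0.005 and 0.023, and on replicates 1 and 2 by 0.126 and 0.113. With the normexp correction the mean difference turned to -0.0098, at -0.066 and -0.010 on replicates 3 and 4, and with only probes well above background it was -0.011 and -0.017 on those arrays. No test was run over the members as a set, and these values are a description.

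Probe base composition moved with the ratio. Across probes, Pearson's r between GC content and mean log2 ratio was -0.22 for Olfr and -0.13 for the other probes, which is a correlation across probes that share the same arrays. Olfr probes with 30 to under 35% GC had a median of 0.19, against 0.05 for other probes in that range. At 40% GC or more the Olfr median was -0.04 and that of other probes -0.20. Within each of the 5 GC ranges the Olfr median was above that of the other probes. Probe length went along with GC, in that the shorter probes had the higher GC. The 129 Olfr probes under 55 bases had a median of -0.08 and GC of at least 38.9%, and the 547 others a median of 0.11. After correction of each array for probe GC the family mean was 0.116 ± 0.043 (SD, n = 4).

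**Figure D1:**
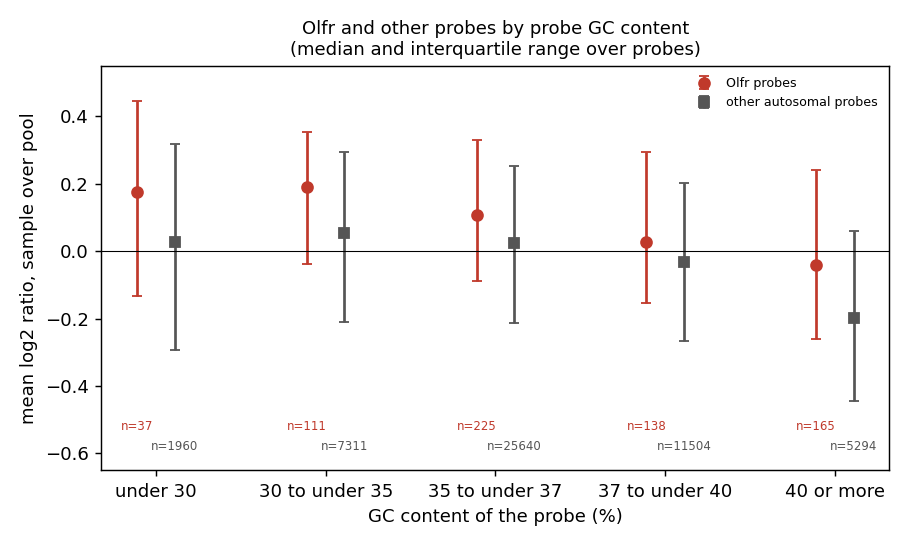
Mean log2 ratio of sample over pool (y axis) for Olfr probes and other autosomal probes in 5 ranges of probe GC content (x axis, %). Points are medians over probes, bars run from the lower to the upper quartile and n is the number of probes. In every range the Olfr median lies above that of the other probes, and both are lowest at 40% GC or more.

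Single Olfr genes were called as often as other genes. A gene was called where its mean log2 ratio was at least 0.25 from 0 with a limma p under 0.05 after Benjamini-Hochberg adjustment over all 20445 autosomal genes. Of the 604 Olfr genes 216 were called (35.8%), against a background of 35.4% of all genes. By direction, 146 were above the pool (24.2%), where 16.1% of all genes were, and 70 below it (11.6%), where 19.3% of all genes were. After the GC correction the split was 161 above and 41 below, against 15.9% and 17% of all genes. Without a size limit or adjustment, 299 Olfr genes had a p under 0.05, with the share of all genes not given here. Of the 216 genes, 209 had the same sign on all 4 arrays and 192 had every probe well above background in both channels on all arrays. At the probe level 227 Olfr probes were called (33.6%), against 36.9% of all autosomal probes, 155 of them above the pool, where 18.2% of all probes were, and 72 below it, where 18.8% were. Without replicate 1 the number of called Olfr probes was 147, with the share of all probes not given here. A gene call mostly rests on 1 probe of 45 to 60 bases, and it does not by itself show that a gene is gained or lost. The calls nearest to the size limit were Olfr340 at -0.2504 (adjusted p = 0.0495), called, and Olfr586 at 0.2506 and Olfr659 at 0.2484, neither of them called. Olfr370 also lies beside the limit and was not called, but its signal was well above background on 0 arrays for the sample and on 2 for the pool, and no ratio is given for it here.

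Olfr822 of OR10.2 led the calls above the pool among those with measurable signal, followed by Olfr1156 of OR2.2 and then Olfr820 of OR10.2. Olfr822 was at 1.65, 0.85, 0.99 and 0.75 on replicates 1 to 4, a mean of 1.06 ± 0.40 (SD, n = 4; adjusted p = 0.0035). Olfr820, 57 kb away in the same cluster, was at 1.24, 0.95, 0.74 and 0.61, a mean of 0.88 ± 0.28 (adjusted p = 0.0025). Both were far above 0 on every array, with replicate 1 the highest. Olfr1156 of OR2.2 was at 1.02, 1.25, 0.48 and 0.94, a mean of 0.92 ± 0.32 (SD, n = 4, adjusted p = 0.0030), lowest on replicate 3. Its near neighbour Olfr1157, 13 kb along the chromosome, had the opposite sign at -0.88, -0.45, -0.85 and -0.81 (adjusted p = 0.0022). On every array Olfr1156 was above 0 and Olfr1157 below it.

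Olfr355 was the called gene with the most probe support. Its 3 probes span 684 bases and had means of 0.89, 0.80 and 0.60. The gene was at 0.66, 0.91, 0.68 and 0.79 on replicates 1 to 4, a mean of 0.76 ± 0.12 (SD, n = 4; adjusted p = 0.0012). All 3 probes were thus above 0, on all arrays, and all were well above background in both channels. The other genes among the highest 12 with signal above background on at least 3 arrays in each channel were Olfr938, Olfr116, Olfr667, Olfr568, Olfr490 and Olfr711, with means of 0.70 to 0.74, and the call of Olfr938 was lost without replicate 4. Olfr648 and Olfr798 were also called above the pool, but their probes were not well above background in either channel on any array, and no ratio is given for them.

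Olfr1511, Olfr632 and Olfr1413, the lowest Olfr genes, were tight across arrays, while others among the 12 lowest were not. Olfr1511 of OR14.2 was at -1.23, -0.95, -1.05 and -1.24, a mean of -1.12 ± 0.14 (SD, n = 4; adjusted p = 0.00063). Olfr632, in the class I cluster OR7.4, was at -1.04, -0.76, -1.08 and -1.01 (adjusted p = 0.00089). Olfr1413 of OR1.1 was at -0.98, -0.93, -0.94 and -0.82 (adjusted p = 0.00065). Each was below 0 on all arrays with an SD under 0.15, and each rests on 1 probe of 48 to 51 bases. The 12 lowest genes had a median probe GC of 42.2% and a median length of 55 bases, against 36.7% and 60 bases for the probes of the 12 highest. Olfr137, Olfr1157, Olfr464, Olfr434, Olfr1014, Olfr319, Olfr1023 and Olfr38 followed, with means from -0.87 to -0.66. Olfr137 was at -0.37, -0.53, -1.10 and -1.49, so that its mean of -0.87 joins a smaller difference on slide 1 to a larger one on slide 2. Olfr463 was called below the pool with a sample signal not well above background on any array, where the bound gives no fold.

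**Figure D2:**
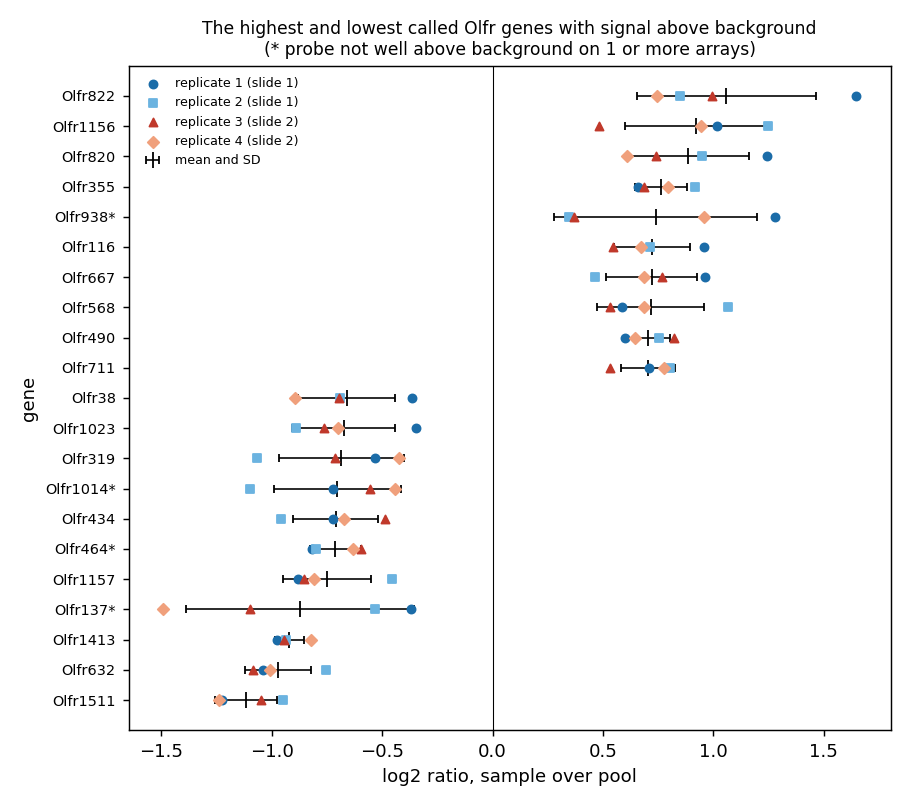
Log2 ratio of sample over pool (x axis) for the highest and lowest called Olfr genes (y axis), without the 3 whose signal was not well above background on any array in a channel. Symbols are the 4 arrays, the tick is the mean and the bar its SD. Every symbol lies on the same side of 0 as its gene's mean, and Olfr1511, Olfr632 and Olfr1413 have the lowest means.

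Probes of the same gene often differed. Among the 28 genes with 3 probes, 5 were called above the pool (Olfr355, Olfr891, Olfr771, Olfr1164 and Olfr1370) and 0 below it, where 16.1% of all genes were above and 19.3% below. Probes of a single sign were found in 9 of the 28. The other 4 called genes had means of 0.43 ± 0.15 for Olfr891, 0.43 ± 0.14 for Olfr771, 0.35 ± 0.08 for Olfr1164 and 0.34 ± 0.07 for Olfr1370 (SD, n = 4). The highest and lowest probe of a gene lay a median of 0.45 apart, from 0.04 to 1.35. Olfr985, with probe means of -0.72 to 0.62, had the widest range, and its gene mean of -0.04 was not called. Olfr1370 was called although its probes ran from -0.38 to 0.71. In contrast, the probes of Olfr770 lay between -0.24 and -0.19 and the gene, at -0.21, was not called. Neighbouring Olfr probes along a cluster had nearly unrelated means, with Pearson's r of 0.08 over 632 adjacent pairs. Between arrays the same Olfr probes correlated at 0.50 to 0.65, against 0.61 to 0.70 for other autosomal probes.

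Olfr1226 shows how a single probe can set one gene's value on one array. Of its 3 probes, the pair printed here overlap by 30 bases, which are set in capitals.
Olfr1226, chr2:89033250-89033309: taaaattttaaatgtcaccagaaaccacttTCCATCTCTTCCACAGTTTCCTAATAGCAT
Olfr1226, chr2:89033280-89033339: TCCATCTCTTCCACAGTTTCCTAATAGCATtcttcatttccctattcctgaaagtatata
The first of them was at 0.04, -0.17, 0.01 and -0.09 and the second at -0.31, 0.17, 0.05 and 0.06. Both stayed near 0. The third, chr2:89034149-89034208, was at 0.33, 0.15, -1.89 and 0.01, far below 0 on replicate 3 alone. That probe was well above background in the sample channel on 3 of the 4 arrays. In all, 4 of the 676 Olfr probes share a stretch of 20 bases with another probe of the array, where 184 of 54572 placed probes do. The overlapping Olfr1226 pair is among the 4. An exact match of 20 bases misses copies with scattered mismatches, so the number of close sequence copies was not measured. Cross-hybridisation to other receptor genes was not tested.

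At the cluster level, 16 of the 26 clusters with at least 5 Olfr probes were called (61.5%), 12 above the pool and 4 below. The value of a cluster was the median of its Olfr probes on each array, fitted with limma together with blocks of 20 other probes over all autosomes, and called at an adjusted p under 0.05 and a mean at least 0.1 from 0. Of all 2617 regions 49.6% were called, 24.5% above and 25.2% below. Clusters hold 5 to 128 probes. The fit draws the spread of every cluster and block toward 1 common value, so that p-values of small clusters may be too small. The number called was 10 without replicate 1, 9 with each slide's mean as 1 sample and 3 with a size limit of 0.25. The split of 12 above and 4 below became 5 and 6 with the normexp correction, 6 and 5 with mode centring or with only probes well above background, 7 and 4 with the deposited table or the mean of a cluster's probes, and 14 and 2 after the GC correction. It was 5 and 4 with slide means, 6 and 4 without replicate 1 and 8 and 3 without replicate 2. The share of all regions called under these other settings is not given here. The counts therefore show how far the Olfr clusters moved, and not a difference from other regions. Against the probes within 2 Mb on either side, 11 clusters were called (42.3%), against 33.4% of all regions. Of the 26 clusters 8 were called above their flanks (30.8%) and 3 below (11.5%), where 17.2% and 16.2% of all regions were. In both fits 9 clusters were called in the same direction.

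OR16.4 and OR10.2 were the highest clusters. OR16.4 (chr16:58823585-59361638, 11 Olfr probes, 10 genes) had array medians of 0.17, 0.26, 0.48 and 0.75, a mean of 0.42 ± 0.26 (SD, n = 4). All arrays were above 0, and both arrays of slide 2 were above both of slide 1. The probes of Olfr175-ps1, Olfr195 and Olfr197 were not well above background on every array in both channels. The median was the value of Olfr195 on replicates 1 and 3 and that of Olfr175-ps1 on replicate 2. Of the 10 genes 3 were called above the pool and 0 below. OR10.2 (chr10:128427744-129647309, 33 probes, 26 genes) was at 0.37, 0.19, 0.15 and 0.28, a mean of 0.25 ± 0.10. Of its 26 genes 12 were called above the pool and 0 below, with Olfr822, Olfr820 and Olfr771 among them. Of all genes 16.1% were called above and 19.3% below. These 2 clusters were picked by the same ratios, so nothing is read from the direction of their gene counts. The other probes inside had medians of 0.001 in OR16.4 and 0.008 in OR10.2. Single probes of either kind departed from these medians, and in OR16.4 the other gene AK017005, chosen after its values were seen, was called above the pool at 0.38 ± 0.18 while Olfr207 had a mean of -0.60. Over their flanks the 2 clusters lay 0.41 ± 0.25 and 0.39 ± 0.12 higher. They kept their calls under the other backgrounds, sources, centrings and filters, with the GC correction and with any replicate left out, but OR10.2 at 0.248 is under the stricter size limit of 0.25. Of 21 clusters with at least 5 probes of each kind, the Olfr median was above that of the other probes inside in 12 and below it in 9.

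OR7.5, OR13.1 and OR14.2 followed, with means of 0.20 ± 0.03, 0.15 ± 0.13 and 0.15 ± 0.09 (SD, n = 4). Against their flanks they lay at 0.19 ± 0.08, 0.03 ± 0.11 and -0.03 ± 0.15, and only OR7.5 was called there. The other probes inside had medians of 0.16, 0.28 and -0.01, above the Olfr mean in OR13.1. The call of OR13.1 against 0 was lost without replicate 4, at a mean of 0.10. That of OR14.2 was lost with only probes well above background, at 0.092. OR7.5, on chromosome 7 beyond the class I genes, was the most even of the higher clusters, at 0.24, 0.21, 0.17 and 0.20. Of its 32 genes 12 were above the pool and 1 below, where 16.1% and 19.3% of all genes were. OR7.5 was picked by the same ratios, so nothing is read from the direction of its gene counts. OR2.2 (chr2:85240363-90092398), the largest cluster with 128 probes and 113 genes, was at 0.18, 0.17, 0.07 and 0.08, a mean of 0.13 ± 0.06. Of its 113 genes 32 were above the pool and 13 below, against the same shares of all genes. The cluster lay 0.24 ± 0.07 above its flanks. Its call against 0 was lost without replicate 1 and with normexp, mode centring, slide means or the mean of its probes. OR7.4, the cluster of class I receptors around the beta-globin genes, was at 0.15, 0.15, 0.09 and 0.03. It had 24 of its 86 genes above the pool and 11 below, against the same shares. Its other probes had a median of 0.103, close to its mean of 0.104, and it was not called against its flanks. Its call against 0 was lost without replicate 1, without replicate 2 and under the normexp correction, where its mean was 0.0095.

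The lowest clusters were OR15.1, OR11.1, OR11.3, OR1.1 and OR4.4. OR15.1 (chr15:98170423-98328805, 5 probes) was at -0.28, -0.19, -0.32 and -0.53, a mean of -0.33 ± 0.15 (SD, n = 4). Of its 5 genes 3 were below the pool and 0 above. OR11.1 was at -0.21, -0.16, -0.30 and -0.36, with 4 of its 8 genes below and 0 above. Of all genes 19.3% were below and 16.1% above, and these clusters were picked by the same ratios. OR11.3 was at -0.19, -0.33, -0.30 and -0.14. All arrays were below 0 in each of the 3. OR1.1 had a mean of -0.13 ± 0.10, whose call was lost without replicate 2 and without replicate 3, and OR4.4, not called, one of -0.09 ± 0.02. Mean probe GC was 41.8% in OR15.1, 42.9% in OR11.3, 42.5% in OR1.1, 41.1% in OR4.4 and 37.8% in OR11.1. After the GC correction OR15.1 was at -0.18, OR11.1 at -0.13, OR11.3 at -0.03 and OR1.1 at -0.04, and the calls of OR11.3 and OR1.1 were lost. OR4.4, not called in either setting, turned to 0.05. The 18 clusters with fewer than 5 Olfr probes, 31 probes in all, had means from -0.71 to 0.55. The lowest, OR11.5, has 2 probes, including that of Olfr463, whose sample signal was not well above background on any array. The highest, OR4.3, has 1 probe.

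**Figure D3:**
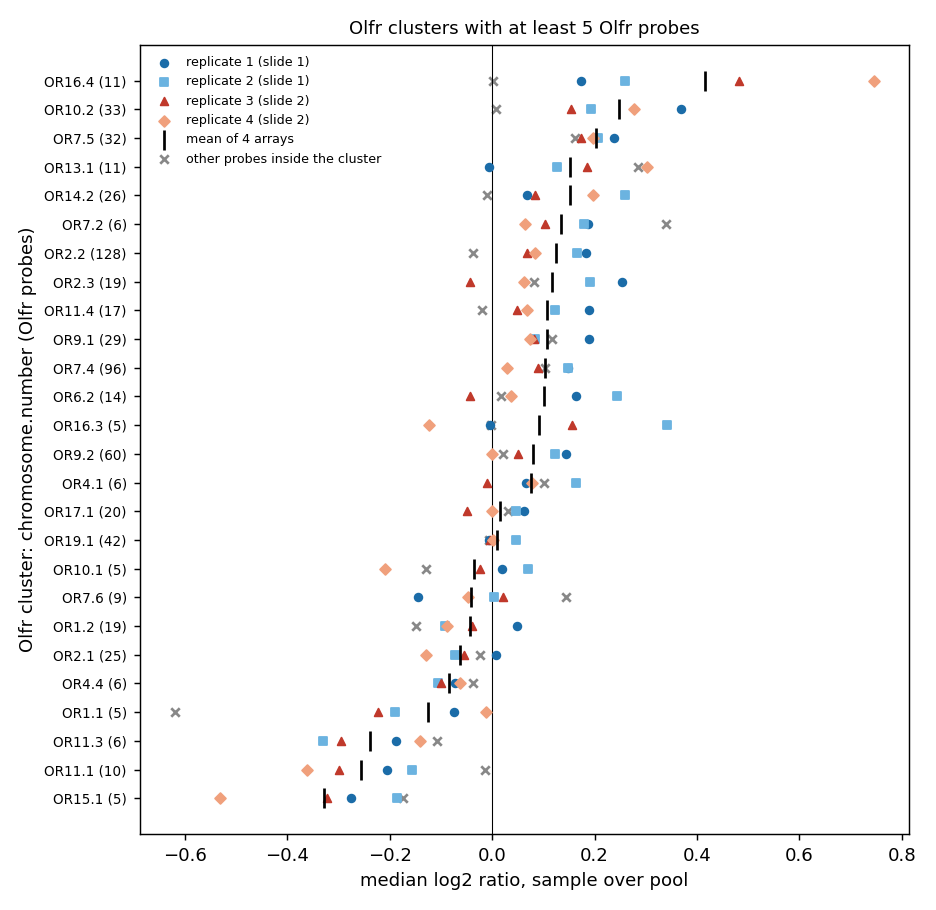
Median log2 ratio of sample over pool (x axis) of the Olfr probes in each of the 26 clusters with at least 5 of them (y axis, number of Olfr probes in brackets), sorted by mean. Coloured symbols are the 4 arrays, ticks their mean, and crosses the median of the other probes inside the cluster. OR16.4 is the highest and the most spread across arrays, and its other probes lie at 0.001.

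Among the 26 clusters with at least 5 Olfr probes, the means of the 2 slides lay farthest apart in OR16.4, at 0.22 and 0.61. Olfr207 was at 0.32 and 0.48 on replicates 1 and 2 and at -1.92 and -1.28 on replicates 3 and 4, with an SD of 1.19 over the 4 arrays. It was chosen after its values were seen, as were the other probes described here with it. Its probe was well above background in both channels on all arrays. The sample intensities were 660, 622, 473 and 840, and the pool intensities were 536, 460, 1798 and 2029. The sample channel overlapped between slides, while the pool channel was higher on slide 2, by 3.36 times from the highest value of slide 1 to the lowest of slide 2, although the pool is labelled alike on all arrays.

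About 325 kb before Olfr207, 4 consecutive probes moved the other way. Olfr186 was at -0.02 and -0.08 on slide 1 and at 1.02 and 1.44 on slide 2. Olfr187 was at -0.22 and -0.09 against 0.67 and 0.85. Both probes of Olfr183 were also higher on slide 2, at 0.45 and 0.37 against 0.94 and 0.89 for the first and at -0.09 and -0.33 against 0.20 and 0.29 for the second. The slides did not overlap at any of the 4 probes, which cover chr16:58997491-59036145 and differed by a mean of 0.79. For Olfr186 the sample intensities were 400, 433, 537 and 713 and the pool intensities 411, 471, 266 and 260, so that both channels differed between slides, in opposite directions. The next probe on the array, without a gene name, was at -0.66, -0.72, -0.88 and -0.70 and showed no such difference. Runs of at least 4 consecutive probes whose slides did not overlap and differed by at least 0.4 on each were found 4 times on all autosomes, and 1 of the 4 was this run. Further along the same cluster Olfr199, Olfr202 and Olfr206 were above 0 on every array, with means of 0.66, 0.62 and 0.59. Olfr206 was lower on slide 2, at 0.77 and 0.88 against 0.53 and 0.19. The probe just before Olfr207, without a gene name, was also lower there, at 0.12 and 0.38 against -0.49 and -0.50. The slides did not overlap at either probe, but they overlapped at the probe between them and at the one after Olfr207. These probes were chosen after their values were seen.

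A limma fit of slide 2 minus slide 1 called 0 of 20445 genes at an adjusted p under 0.05, a background of 0%. Unadjusted, 2207 genes (10.8%) and 102 of the 604 Olfr genes (16.9%) had a p under 0.05. Olfr207 differed by -2.0 and ranked 13 of 20445 by p, Olfr186 by 1.28 and ranked 31, and Olfr187 by 0.92 and ranked 41, each with an adjusted p of 0.372. With the normexp correction 4 genes were called (0.0196%), and Olfr207 was the Olfr gene among them at -1.59 (adjusted p = 0.0372). With only probes well above background 3 genes were called (0.016%) and 0 of them were Olfr genes. Of the 26 clusters, 20 had a higher mean on slide 1 than on slide 2. Each slide holds 2 samples, and whether the difference lies in the samples, the pool aliquots or the slides cannot be told apart.

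**Figure D4:**
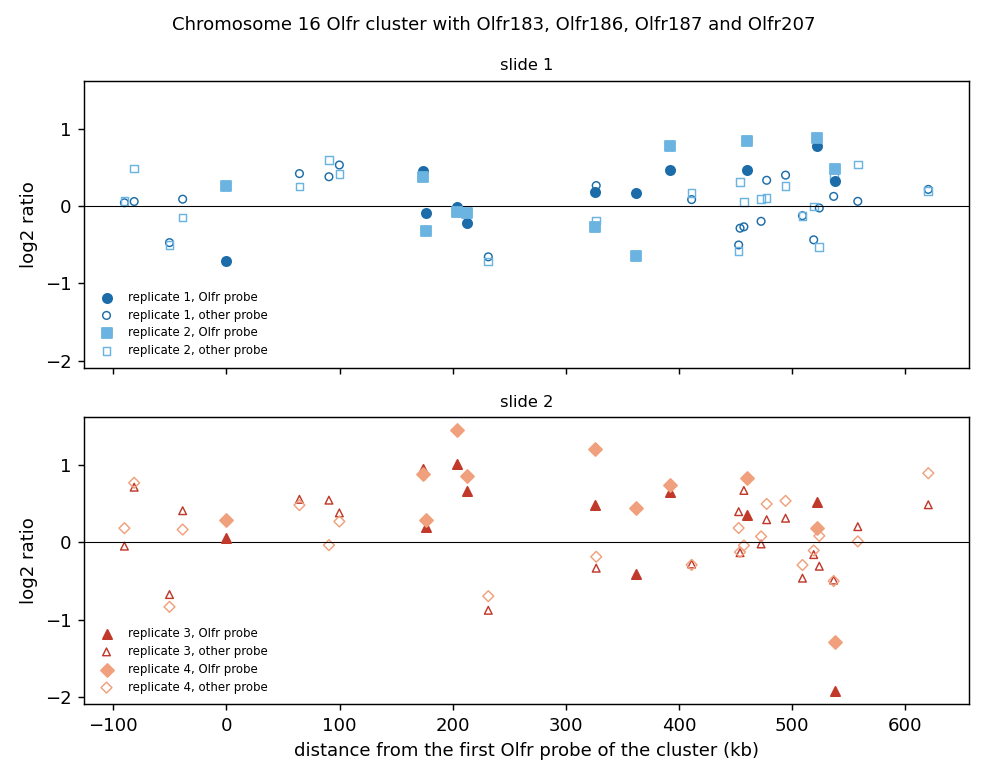
Log2 ratio of sample over pool (y axis) for each probe in and around OR16.4 against its distance from the first Olfr probe in kb (x axis), for the arrays of slide 1 (upper panel) and slide 2 (lower panel). Filled symbols are Olfr probes and open symbols other probes. Olfr207, the last Olfr probe, is at 0.32 and 0.48 on slide 1 and at -1.92 and -1.28 on slide 2, and Olfr183, Olfr186 and Olfr187 are higher on slide 2.

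Genes of the olfactory pathway outside the receptor clusters were set beside the receptors. Of 28 listed genes for signal transduction, receptor trafficking and receptor choice, 24 were measured on autosomes, of which 3 were called above the pool, 8 below and 13 not called. Of all genes 16.1% were called above and 19.3% below. The median over the list was 0.02 and that over all genes -0.01. Rtp1, which helps receptors reach the cell surface, was at -1.49, -0.76, -0.61 and -0.55, below 0 on every array and lowest on replicate 1 (adjusted p = 0.0080). Ehmt2, a histone methyltransferase, was at -0.47, -0.85, -0.60 and -0.51 (adjusted p = 0.0031), and Gng13, a G protein gamma subunit of chemosensory cells, at -0.63, -0.68, -0.27 and -0.51 (adjusted p = 0.0051). Stoml3, a membrane protein of olfactory cilia, was above 0 on all arrays, with a mean of 0.47 ± 0.22 (SD, n = 4). Of 73 vomeronasal receptor genes 23 were called above the pool and 5 below, 38.4% in all against 35.4% of all genes. The median over these genes was 0.12, with Vmn1r66 and V1rd18 the highest at 0.75 and 0.74 and Vmn1r231 the lowest at -0.75. Of 4 trace amine-associated receptors, Taar2 was above the pool at 0.46 ± 0.11 and Taar4 and Taar9 were below it at -0.40 ± 0.23 and -0.31 ± 0.13.

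Inside the Olfr clusters lay 13 beta-globin and Trim genes, of which 4 were called above the pool and 1 below, 38.5% in all against 35.4% of all genes. Of the 3 Trim30 genes measured, members of a family with roles in innate immunity, Trim30d and Trim30b were called in opposite directions, with Trim30d at 0.76, 0.52, 0.72 and 0.61 and Trim30b at -0.62, -0.74, -0.89 and -0.83. Trim30a, at 0.20, 0.05, 0.25 and 0.40, was not called (adjusted p = 0.0535). The embryonic beta-globin gene Hbb-bh1 was at 0.61, 0.69, 0.42 and -0.08, so that replicate 4 stood below 0 (adjusted p = 0.0467). Of the other 189 named genes inside the clusters 38 were called above the pool and 27 below, a total of 34.4%, against the 35.4% of all genes.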

How the data were processed

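Genomic DNA of 4 samples was hybridised against 1 pool, with 250 ng labelled per the labels' protocols. The deposited intensities were made with Agilent Feature Extraction 10.10.1.1 on build mm9, per the file headers, and were already background-subtracted and dye-normalised with a linear method. The log10 ratios deposited by the authors were used as a check only. The log2 values in the authors' deposited table were used as an alternative. Their correlation with the ratio from the same array was 0.912 to 0.923 over 54557 probes, and 0.689 or less with other arrays. The table's column medians were -0.035, 0.029, 0.052 and 0.005. Its direction was read from this comparison, and its normalisation is unknown.

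Control spots (3924 of 62976) and spots with outlier flags were left out. The log2 of processed Cy5 over Cy3 intensity was averaged over spots of a probe and centred on the autosomal median, with no loess or quantile step. A gene was the mean of its probes. Tests used limma 3.58.1 in R 4.3.3 (lmFit, eBayes) with Benjamini-Hochberg adjustment over all autosomal genes, probes or regions. Intensities are background-subtracted and have no count depth, so the number of arrays limits the precision. With 4 arrays an exact sign-flip test cannot go below a two-sided p of 0.125. The labels do not tie the samples to separate animals, so the p-values rest on a spread between samples that may be technical. Where a channel was not well above background on any array, no ratio was given unless a bound allowed one, except for array values of Olfr370 in the closing section. The bound is computed with the dim channel raised to the lowest signal of any probe marked well above background.

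Alternatives were normexp (offset 50), the deposited table, probes well above background only, mode centring, a lowess correction on probe GC, leaving out each replicate, slide as a random block or as means, other size limits, a 0.5 Mb gap, flanks of 1 Mb and genes with at least 2 probes. The gene fit was tested on simulated data. It recovered 6% of changes of 0.35, 42% of 0.5, 82% of 1 and 90% of 2, with 4 false calls. Fewer genes were changed in the simulation than were called in the data, so it does not check the number of calls. The members and lists were chosen with earlier results of these data known. The genes named are the 12 highest and 12 lowest called Olfr genes with 1 sign on all arrays, those with 3 probes, those beside the size limit, the 5 highest and lowest clusters and the largest, and up to 3 called members of other lists. Other names were chosen after their values were seen. Exon and UTR positions on mm9 were not used here.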

Additional observations from a re-analysis of the deposited data

Results flagged for a closer look

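Sets of 4 array values were tested for the Olfr genes named by the stated rules and for Olfr183, Olfr186, Olfr187 and Olfr207. The 26 clusters with at least 5 Olfr probes and the family median were tested too. Of these 86 sets, 5 had 1 array far from the other 3, by a test in which chance flags about 5% of sets. Olfr1226 was at -0.61 on replicate 3 and between -0.004 and 0.05 on the others. Olfr995, a gene of OR2.2 with 3 probes, was at 0.62 on replicate 1 and between -0.26 and -0.14 on the others, and its mean of 0.002 was not called. Olfr370, whose probe had no sample signal marked well above background on any array, had values of 0.68 on replicate 3 and near 0.1 on the others, which do not measure its ratio. Cluster OR9.1 had a median of 0.19 on replicate 1 and 0.07 to 0.08 on the others, and without replicate 1 its call was lost, at a mean of 0.08. Cluster OR19.1 had a median of 0.047 on replicate 2 and -0.006 to 0.001 on the others, and it was not called.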

How the results depend on the processing

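No paired analysis was possible because there is 1 group set against a pool. The number of called Olfr genes, 216 in the report, was 202 to 225 under the other backgrounds, sources, centrings and filters, 161 with slide means and 159 to 186 with 1 replicate left out. Restriction to genes with at least 2 probes left 11 calls, 9 above the pool and 2 below, since fewer genes are tested. A size limit of 0.5 left 79 genes, 54 above and 25 below, and 99 probes. The counts in this section are given without the share of all genes, probes or regions called under the same setting. They show how far the Olfr counts moved, and not a difference from other genes. The GC correction left 41 genes below the pool in place of 70. Called probes numbered 147 to 170 and called clusters 10 to 17 with 1 replicate left out. Clusters numbered 9 with slide means and 3 with a size limit of 0.25. The family mean was 0.033 with normexp and otherwise between 0.060 and 0.116, and the cause was not tested. Normexp gave 1 Olfr gene that differed between slides in place of 0. Of the 24 highest and lowest genes 23 kept their call with normexp and 23 with the GC correction, 17 with probes well above background only (the other 7 have no such probe), and 21 to 24 with 1 replicate left out. Among genes and clusters called in either setting, the sign changed for Olfr985, at 0.29 with only probes well above background, for cluster OR6.2, at -0.0081 with normexp, and for cluster OR7.6, at 0.19 after the GC correction. Means of uncalled clusters also changed sign, among them OR4.4 (0.05), OR1.2 (0.02) and OR2.1 (0.02) after the GC correction. Signal over background limits the 14.3% of Olfr probes that were not well above it everywhere.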

Other observations

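Other gene families inside the Olfr clusters gave calls that the report does not name. They were chosen after their values were seen. OR14.2 on chromosome 14 holds the ribonuclease A family, secreted enzymes with roles in host defence and vessel growth. Of its 8 measured genes 5 were called above the pool and 1 below, where 16.1% and 19.3% of all genes were. Rnase4 had a mean log2 ratio of 0.99 ± 0.19 (SD, n = 4), Ang, which encodes angiogenin, one of 0.89 ± 0.15, and Rnase6, with 3 probes, one of 0.57 ± 0.04. Rnase9 was below the pool at -0.30 ± 0.11. OR6.2 on chromosome 6 holds 4 measured bitter taste receptor genes, of which Tas2r126 and Tas2r139 were called above the pool at 0.35 ± 0.16 and 0.36 ± 0.17, and 0 below. Since both families were chosen for their values, nothing is read from these counts.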
